A study of Aspergillus luchuensis with 9 samples.

Results

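The subject is the change in gene expression shared by strains of the white koji mould Aspergillus luchuensis mut. kawachii, a fungus grown on grain to make koji for distilled spirits, that lack LaeA or HepA. The 6 libraries of the ΔlaeA and ΔhepA strains were taken as one side and set against the 3 libraries of the control strain, which makes up all 9 libraries of the series. ΔlaeA and ΔhepA each lack 1 named gene, and the control is labelled only as control, with 3 poly(A)-enriched, stranded RNA-seq libraries per strain. Strain background, culture condition and number of independent transformants are not given in the sources used here, nor is it said whether replicates were separate cultures; the p-values therefore speak of the spread between these libraries, which may be technical. Expression was deposited as FPKM, fragments scaled by transcript length and library total. Of 12941 genes in the table, 10009 had at least 1 FPKM in at least 3 of the 9 libraries and were tested. Of these, 934 had all 6 deletion values on one side of all 3 control values, called one-sided below, and they are the genes described here. Neither laeA nor hepA is a symbol in the reference used, so the 2 deletions could not be checked at the deleted genes themselves.

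HepA belongs to the heterochromatin protein 1 family, which binds methylated histone H3 and packs chromatin into a silent state. LaeA is a nuclear methyltransferase-like protein that acts with the velvet proteins and is best known as a regulator of secondary metabolite clusters and of development. The comparison asks which genes stand higher or lower whichever of these chromatin-level regulators is lost.

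The libraries did not separate by strain alone. A principal component analysis of log2(FPKM + 1) had 39.1% of the variance on its first axis, where ΔlaeA replicates 2 and 3 and ΔhepA replicate 2 lay apart, at 28.8 to 72.8, from the other 6 libraries at -46.4 to -9.8. Mitochondrially encoded genes took 2.85% to 7% of the FPKM sum in those 3 libraries and 1.09% to 1.66% in the other 6. Low FPKM values move in steps of 1 fragment, and the ratio of these steps to those of control replicate 3 put the depth at 0.519 to 0.969 of that library in the ΔlaeA libraries. For ΔhepA it was 0.898 to 1.04, and for the control 0.841 to 1. The 2 shallowest libraries were ΔlaeA replicates 3 and 2, at 0.519 and 0.66. All 3 libraries that lay apart are deletion libraries, so the main counts are also given without them. Their part in the results was otherwise not tested.

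With FPKM as deposited, more genes stood lower than higher in both deletion strains, a split that was near even among one-sided genes after rescaling (520 lower and 500 higher). All 6 deletion values lay below all 3 control values for 709 genes (7.08% of those tested) and above them for 225 (2.25%). The averaged contrast, the mean of ΔlaeA and ΔhepA minus the control in a limma fit over all 9 libraries, called 113 genes lower (1.13%) and 9 higher (0.0899%) at a Benjamini-Hochberg adjusted p under 0.05. Of these, 108 lower genes (1.08%) and 8 higher genes (0.0799%) were also one-sided. The differences of the 108 ran from -5.02 to -0.86 on the log2(FPKM + 1) scale with a median of -2.08, and those of the 8 from 1.04 to 2.95. That scale understates changes of low genes. The one-sided genes that were not called numbered 818. The median difference of all 10009 genes was -0.17, and differences below are to be read against it. Of these genes 6303 had a negative and 3706 a positive difference, and counts of signs in the lists below are to be read against those.

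The share of genes in each direction depended on the scaling of the libraries. FPKM were used as deposited, and with median-ratio scaling, which sets the median difference of all genes to 0, the one-sided genes numbered 520 lower and 500 higher, so that 49% were higher, against 24.1% as deposited. Genes called and one-sided then numbered 78 lower and 25 higher, 24.3% higher against 6.9%. Of the 116 genes called and one-sided, 86 were also called with that scaling. Without the 3 libraries that lay apart, 1136 genes lay below and 1144 above the control, and 6 of the 116 were called. The median difference of all genes was then 0, and 3 values also fall on one side more easily than 6. The part of either in these counts was not tested. A one-sided gene stays one-sided when libraries are dropped, so such counts in the lists below could fall only through the filter.

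**Figure D1:**
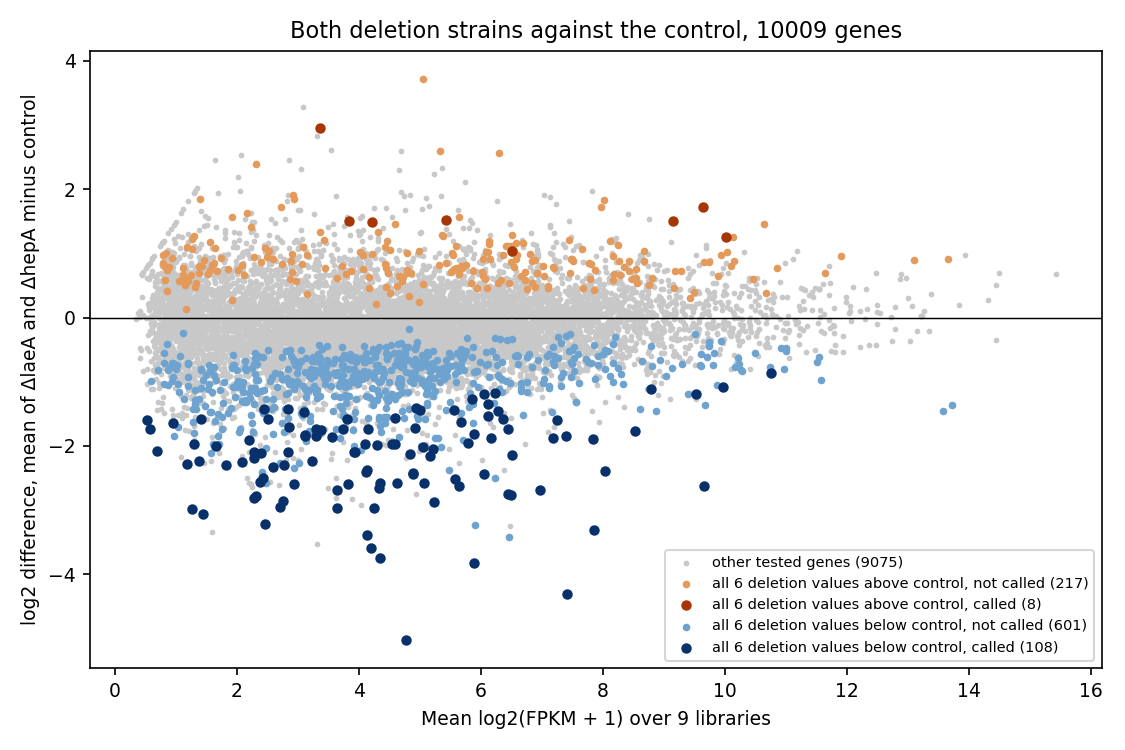
Difference between both deletion strains and the control for each of the 10009 tested genes (vertical axis, log2 scale, mean of ΔlaeA and ΔhepA minus control) against its mean log2(FPKM + 1) over 9 libraries (horizontal axis). Dark points are the 108 genes lower and 8 genes higher that were called and one-sided; light points are the 601 lower and 217 higher one-sided genes that were not called. The called genes reach down to -5.02 and up to 2.95.

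The 3 largest falls shared by both strains were among 4 neighbouring called genes on chromosome 4, from AKAW2_40841A (start 2417341) to AKAW2_40844S (end 2424135, coordinates as deposited). The reference gives none of the 4 a symbol. AKAW2_40842S had 3.6, 8.73 and 6.65 FPKM in ΔlaeA and 10.8, 15.4 and 5.13 FPKM in ΔhepA, against 247, 334 and 262 FPKM in the control. AKAW2_40841A had 43.4, 52.7 and 79.7 FPKM in ΔlaeA and 71.6, 90.1 and 46.9 FPKM in ΔhepA, against 1077, 1303 and 1358 FPKM in the control. The groups were far apart in both genes, and the highest deletion library lay 3.91 below the lowest control library for AKAW2_40842S on the log2 scale and 3.57 below it for AKAW2_40841A. The averaged log2 difference was -5.02 ± 0.35 (SE, limma adjusted p = 7.84e-05) for AKAW2_40842S and -4.31 ± 0.27 (adjusted p = 4.46e-05) for AKAW2_40841A. AKAW2_40844S fell by 3.82 and AKAW2_40843S by 2.76 on the log2 scale (limma adjusted p = 4.46e-05 and 0.000404). All 4 kept their call when any single library was dropped (9 fits), in 12 other settings and when the 3 outlying libraries were dropped together (adjusted p 0.00221 to 0.0042). The gene before the run, AKAW2_40840A, was one-sided as well but not called, at 9.37, 12.4 and 4.13 FPKM in ΔlaeA and 5.07, 5.19 and 5.57 FPKM in ΔhepA, against 19.4, 12.9 and 12.5 FPKM in the control (log2 difference -1.06 ± 0.34, adjusted p = 0.158).

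A second run of 3 called neighbours, AKAW2_40204S to AKAW2_40206S (510917 to 517728), lay on the same chromosome and was also lower. AKAW2_40206S had 7.71, 5.22 and 2.21 FPKM in ΔlaeA and 8.34, 11.2 and 12.1 FPKM in ΔhepA, against 61.2, 155 and 59.5 FPKM in the control (log2 difference -3.39 ± 0.4, limma adjusted p = 0.00582). AKAW2_40205S had 0.38, 1.49 and 0.24 FPKM in ΔlaeA and 8.05, 6.55 and 5.39 FPKM in ΔhepA, against 28, 33.6 and 15.5 FPKM in the control (log2 difference -2.86 ± 0.35, adjusted p = 0.00596). Each ΔlaeA value of AKAW2_40205S was below each ΔhepA value, but ΔlaeA minus ΔhepA, at -2.23, had a limma adjusted p of 0.103. AKAW2_40204S fell by 2.87 (limma adjusted p = 0.0371); its adjusted p was 0.18 and 0.092 when control replicate 1 or 3 was dropped, 0.0691, 0.0641 and 0.0914 when a ΔhepA library was dropped (replicates 1, 2 and 3), and 0.0947 when ΔlaeA replicate 2 was. Without the 3 libraries that lay apart the 3 genes had adjusted p of 0.0706 to 0.112. Chromosome 4 held 25 of the 116 called and one-sided genes and had the highest share of lower one-sided genes, 9.27% of its 1036 tested genes, against 4.98% to 8.54% on the other 7 chromosomes; the difference between chromosomes was not tested.

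The other genes among the 10 largest falls lay outside these 2 runs, and the reference gives none a symbol. AKAW2_81090A, given further below, ended a run of 4 lower one-sided neighbours on chromosome 8, of which 3 were called. AKAW2_30554S (chromosome 3, 1627458 to 1629169) had 101, 118 and 145 FPKM in ΔlaeA and 114, 77 and 98.1 FPKM in ΔhepA, against 1860, 429 and 1551 FPKM in the control (log2 difference -3.32 ± 0.41, limma adjusted p = 0.00596). AKAW2_61326A (chromosome 6) had 0.49 to 3.22 FPKM over the 6 deletion libraries, against 12.4 to 36.6 FPKM in the control (log2 difference -3.21 ± 0.39, limma adjusted p = 0.00596). Both were called in all 9 fits with 1 library left out, but not without the 3 libraries that lay apart (adjusted p = 0.0996 and 0.0756). AKAW2_80001S, on chromosome 8 at 5025 to 6272, was listed at 0 in all 3 ΔlaeA libraries and had 0.38, 0.65 and 0.4 FPKM in ΔhepA, against 3.11, 13 and 14.3 FPKM in the control. It passed the filter only through the control libraries, where it is high, so its test is not used as support. AKAW2_61138S had at most 1.29 FPKM in any deletion library, against 7.31, 29.1 and 4.68 FPKM in the control (log2 difference -3.06). Among the deletion libraries only ΔlaeA replicate 2 reached 1 FPKM, so this gene also needed the high control values to pass the filter. Its test is not used as support either.

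In the remaining 2 of the 10 largest falls a library or a strain stood at an intermediate level. AKAW2_20544A had 5.03 to 9.43 FPKM in the 6 deletion libraries, against 291, 15.1 and 320 FPKM in the control, so control replicate 2 stood close to the deletion libraries (log2 difference -3.75 ± 0.78, limma adjusted p = 0.0491). Dropping any single library except control replicate 2 or ΔlaeA replicate 1 ended the call (adjusted p 0.0618 without ΔlaeA replicate 3 to 0.28 without control replicate 1). Its difference was -5.16 without control replicate 2 (limma adjusted p = 0.000101), -3.07 without control replicate 1 and -3 without control replicate 3. AKAW2_81090A (chromosome 8) had 1.21, 0.89 and 4.54 FPKM in ΔlaeA and 17.1, 23.4 and 25.1 FPKM in ΔhepA, against 196, 47.4 and 93.1 FPKM in the control (log2 difference -3.59 ± 0.46, limma adjusted p = 0.00728). There the ΔhepA libraries lay between the ΔlaeA libraries and the control, and ΔlaeA minus ΔhepA was -2.98 (limma adjusted p = 0.103).

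Only 13 of the 116 genes called and one-sided had a symbol, of 2168 tested genes with one; 12 fell and 1 rose. Genes of acetate use were the largest group among the 12. ACS1, the acetyl-CoA synthetase gene, had 18.8, 12.3 and 11.3 FPKM in ΔlaeA and 21.1, 16.7 and 17.6 FPKM in ΔhepA, against 177, 80.1 and 50.7 FPKM in the control. The controls spread more widely than the 6 deletion values, with a log2 difference of -2.42 ± 0.37 (SE, limma adjusted p = 0.0117). coaT, which encodes a CoA-transferase in Aspergillus nidulans, had 144, 246 and 210 FPKM in ΔlaeA and 90.5, 148 and 101 FPKM in ΔhepA, against 846, 644 and 307 FPKM in the control (log2 difference -1.9 ± 0.33, limma adjusted p = 0.0226). SFC1, named after the yeast mitochondrial succinate-fumarate carrier, fell by 2.32 on the log2 scale, at 0.73 to 5.78 FPKM in the deletion libraries, against 7.89 to 26 FPKM in the control (limma adjusted p = 0.0495). facB, the activator of acetate use genes in Aspergillus nidulans, was one-sided without being called, at 15.3, 10.7 and 8.03 FPKM in ΔlaeA and 17.6, 15.2 and 13.3 FPKM in ΔhepA, against 47, 29.1 and 26.4 FPKM in the control (log2 difference -1.29 ± 0.29, adjusted p = 0.0667). Of the 11 tested genes of acetate use and the glyoxylate cycle, these 4 were lower and one-sided, 36.4% against 7.08% of all genes, and the list's median difference was -0.76 against -0.17. The same count of 4 was obtained with median-ratio scaling and from the 6 libraries that lay together. In these settings 5.22% and 11.8% of all genes lay below the control. The count from the 6 libraries could not fall, as a one-sided gene that is still tested stays one-sided when libraries are dropped. From those 6 libraries the list's median was -0.37, against 0 for all genes.

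Genes of secreted proteolysis and nitrogen scavenging were also among those that stood lower in both strains. SED2, a sedolisin-type tripeptidyl peptidase, had 1.94, 1.63 and 1.84 FPKM in ΔlaeA and 1.15, 1.72 and 1.46 FPKM in ΔhepA, against 15.7, 40.6 and 7.39 FPKM in the control (log2 difference -2.79 ± 0.43, limma adjusted p = 0.0125). The deletion libraries spanned 1.15 to 1.94 FPKM, and the control libraries spread more widely. PEP1, an acid aspartic protease, was one-sided but not called, at 50.9, 10.8 and 10.6 FPKM in ΔlaeA and 44.9, 26.6 and 30.7 FPKM in ΔhepA, against 284, 66.2 and 123 FPKM in the control (log2 difference -2.38 ± 0.54, adjusted p = 0.0667). With the leucine aminopeptidase gene lap1 they made 3 lower one-sided genes of 14 tested proteases and peptidases (21.4%, against 7.08% of all genes), and 13 of the 14 had a negative difference, with a median of -0.73. Without control replicate 3 the count was 5 (35.7%, against 9.33% of all genes). It was 4 from the 6 libraries that lay together (28.6%, against 11.8%), with a median of -0.3 against 0 for all genes.

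DAL2, the allantoicase gene of purine breakdown, had 365, 202 and 135 FPKM in ΔlaeA and 275, 206 and 362 FPKM in ΔhepA, against 910, 731 and 848 FPKM in the control (log2 difference -1.76 ± 0.31, limma adjusted p = 0.0225). All 3 controls stood well above the deletion libraries. DAL81, GDH2, amdX and hxB were also one-sided, which made 5 lower one-sided genes of 21 in nitrogen scavenging (23.8%, against 7.08% of all genes), with a median difference of -0.64. Without control replicate 2 there were 11 (52.4%, against 16.1% of all genes). From the 6 libraries that lay together there were 6 lower (28.6%, against 11.8%) and 2 higher, and the median was -0.18 against 0. DAL81 and amdX are named after regulators of nitrogen source use in yeast and Aspergillus nidulans, and GDH2 is the NAD-dependent glutamate dehydrogenase. UGA4_1, named after the yeast permease for 4-aminobutyrate, fell by 1.83, at 1.79 to 7.86 FPKM in the deletion libraries, against 16.8 to 22.1 FPKM in the control (limma adjusted p = 0.0276).

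Single members of other lists were called. GIT1_1, named after a yeast glycerophosphoinositol permease, had 29.6, 17.2 and 38.1 FPKM in ΔlaeA and 29.4, 23.4 and 24.2 FPKM in ΔhepA, against 222, 77.9 and 269 FPKM in the control (log2 difference -2.63 ± 0.39, limma adjusted p = 0.0117). DCW1_2, named after a yeast cell wall protein of the mannosidase type, had 0.68 to 1.99 FPKM in the deletion libraries, against 6 to 14.7 FPKM in the control (log2 difference -2.3 ± 0.32, limma adjusted p = 0.00948). It was the only gene with a symbol called in all 9 fits that left out 1 library. SYM1_2, named after an inner mitochondrial membrane protein of yeast, fell by 1.76 (limma adjusted p = 0.0278). MCCC2, a subunit of methylcrotonyl-CoA carboxylase in leucine breakdown, fell by 1.73 (adjusted p = 0.0373), and agdC, named after a fungal glucosidase, by 1.58 (adjusted p = 0.045).

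The calls of the 12 genes with a symbol that fell rested on single libraries more than those of the chromosome 4 run. With control replicate 1 dropped, 1 of the 12 was called (the others at adjusted p 0.0558 to 0.252). Dropping control replicate 2 or 3 left 5 each time (the others at 0.0582 to 0.119 and 0.059 to 0.206). Dropping ΔhepA replicate 1 left 9 (the others at 0.076 to 0.0855), and dropping ΔhepA replicate 2 or 3 left 5 each time (0.0556 to 0.0962 and 0.063 to 0.131). Without ΔlaeA replicates 1, 2 and 3, 12, 6 and 9 were called (the others at 0.0616 to 0.118 for replicate 2 and 0.0536 to 0.0631 for replicate 3). Without the 3 libraries that lay apart none was called (limma adjusted p 0.0834 to 0.181). Their direction could not change there, since these genes were chosen with all deletion values below the control.

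**Figure D2:**
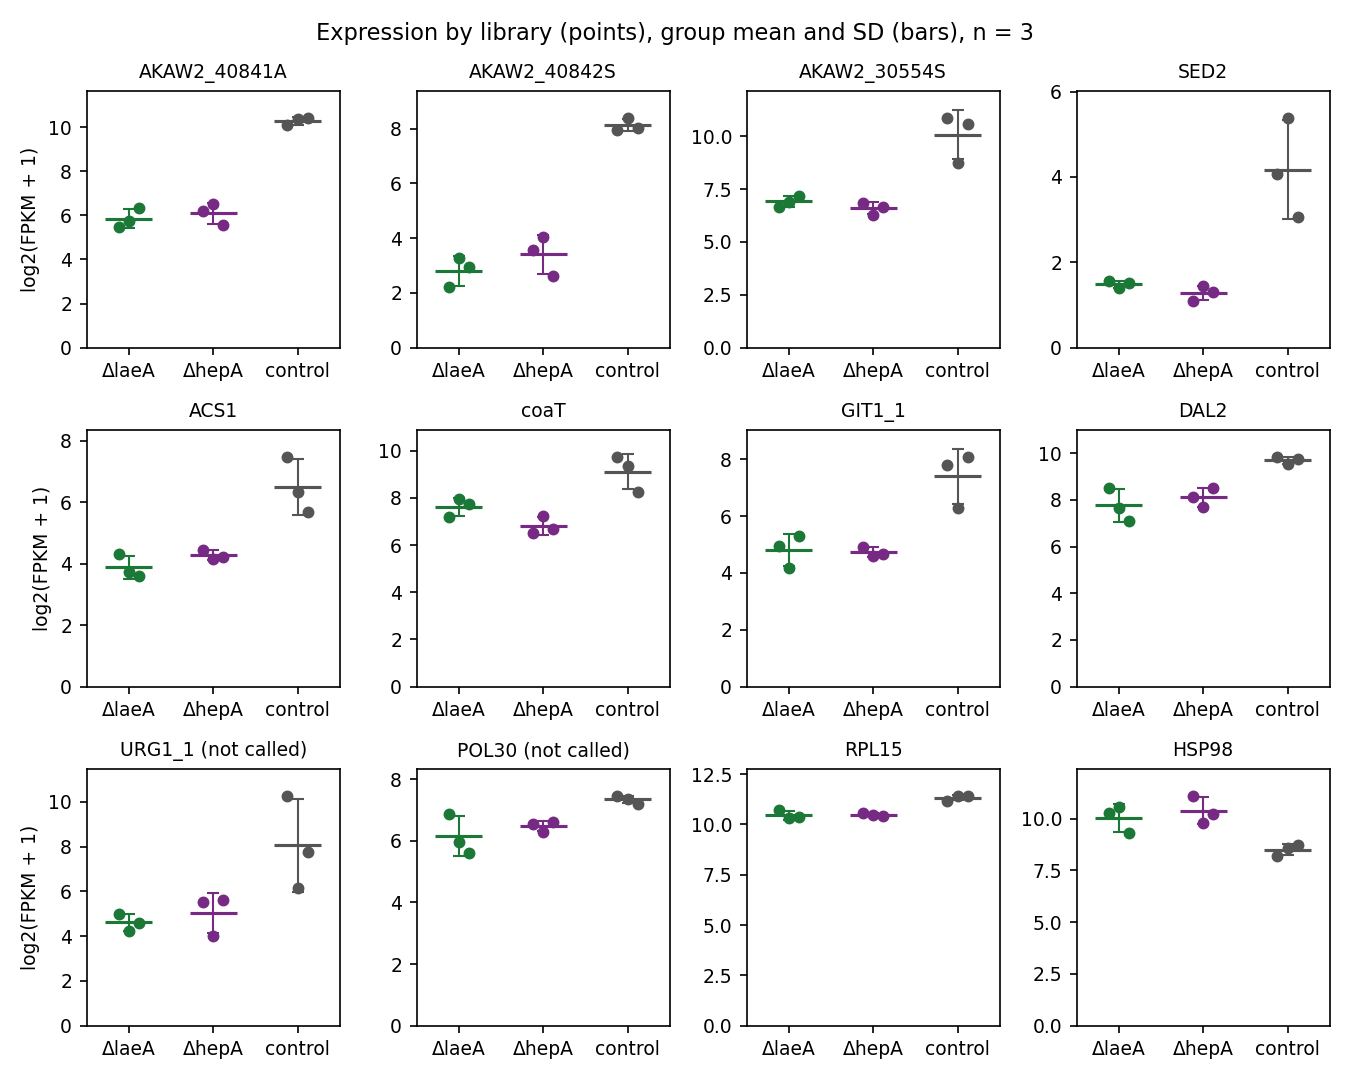
Expression on the log2(FPKM + 1) scale (vertical axis) of 12 genes in the 3 libraries each of ΔlaeA, ΔhepA and the control (horizontal axis); points are libraries, horizontal lines group means and bars SD. In 11 of the genes every deletion library lies below every control library, and in HSP98 every deletion library lies above; URG1_1 and POL30 were not called.

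Among lists of at least 10 tested genes, DNA replication and repair had the largest share of one-sided members below the control, although none was called. Of 41 tested members, 18 had all 6 deletion values below all 3 control values (43.9%, against 7.08% of all genes) and none had them above. A negative averaged difference was found in 37, against 6303 of all 10009 genes. The list's median difference was -0.55, with -0.54 in ΔlaeA and -0.54 in ΔhepA, comparisons that share the 3 control libraries; all genes had medians of -0.21 in ΔlaeA and -0.15 in ΔhepA. The limma test gave 17 of the 41 members an unadjusted p under 0.05, against 1821 of all 10009 genes. The lowest adjusted p of the list was 0.0525. In the 9 sets that left out 1 library, 18 to 22 members lay below the control, where 7.63% to 16.1% of all genes did. Dropping libraries could not lower this count, as a one-sided gene that is still tested stays one-sided. The count was 14 (34.1%) with median-ratio scaling, against 5.22% of all genes. It was 21 (51.2%) from the 6 libraries that lay together, against 11.8%.

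The members span most steps at the replication fork. Of the MCM helicase, MCM3, MCM5, MCM6 and MCM7 were one-sided and MCM2 was not (log2 difference -0.12). MCM5 had 30.2, 10.6 and 14.7 FPKM in ΔlaeA and 31.4, 13.3 and 22.5 FPKM in ΔhepA, against 42.3, 43.3 and 44.8 FPKM in the control (log2 difference -1.16 ± 0.36, limma adjusted p = 0.146). The lowest MCM5 values were those of the 3 libraries that lay apart, and without them its difference was -0.6. POL30, the sliding clamp PCNA, had 117, 61.3 and 48 FPKM in ΔlaeA and 92.6, 77.4 and 96.5 FPKM in ΔhepA, against 174, 164 and 146 FPKM in the control (log2 difference -1.02 ± 0.28, limma adjusted p = 0.115). RFC5, a clamp loader subunit, had 16.5, 9.1 and 16.2 FPKM in ΔlaeA and 24.1, 10.4 and 13.7 FPKM in ΔhepA, against 54.3, 33 and 46.6 FPKM in the control (log2 difference -1.55 ± 0.33, limma adjusted p = 0.0525). RFC5 had the largest difference of the list, and its difference without the 3 libraries that lay apart was -1.28.

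Of the polymerase genes, POL12, the B subunit of the polymerase alpha-primase complex, had 93.9, 104 and 140 FPKM in ΔlaeA and 102, 78.7 and 102 FPKM in ΔhepA, against 251, 166 and 212 FPKM in the control (log2 difference -1.02 ± 0.23, limma adjusted p = 0.0669). POL3, the catalytic subunit of polymerase delta, had 12, 10.2 and 7.65 FPKM in ΔlaeA and 9.8, 8.06 and 10.9 FPKM in ΔhepA, against 23.8, 20 and 21.1 FPKM in the control (log2 difference -1.08 ± 0.25, limma adjusted p = 0.0729). Without the 3 libraries that lay apart the differences were -1.07 for POL12 and -0.9 for POL3. POL1 (polymerase alpha), POL2 (polymerase epsilon), RFC4, and RFA1 and RFA2 of the single-strand binding protein RPA were one-sided too, with log2 differences of -0.96 to -0.51.

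Among the one-sided repair genes were RAD17, RAD52, MSH6 and akuA. akuA, the Ku70 gene of end joining, had 83.4, 84.7 and 72.5 FPKM in ΔlaeA and 108, 52.9 and 71.8 FPKM in ΔhepA, against 137, 237 and 143 FPKM in the control (log2 difference -1.1 ± 0.28, limma adjusted p = 0.0914). RAD50 and MRE11 had negative differences of -0.78 and -0.71 without being one-sided, and the GINS genes PSF1 and psf2 had 0.08 and 0.12. LIG4, the ligase of end joining and the only list member that was not tested, was listed at 0 in all 9 libraries. The 7 histone genes of a separate list, whose transcripts are tied to DNA synthesis in many eukaryotes, had no one-sided member and a median difference of 0.06.

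**Figure D3:**
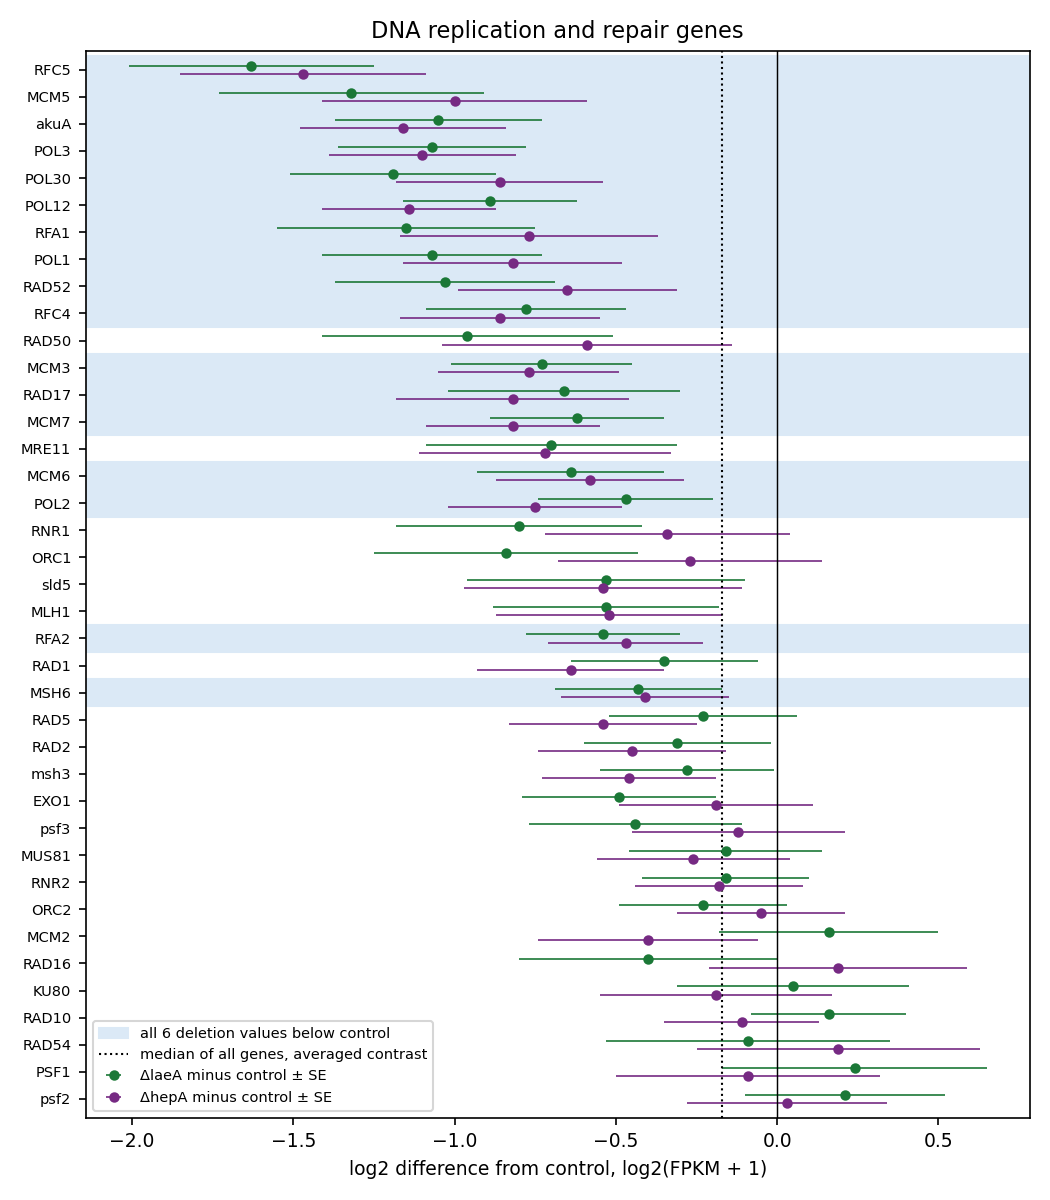
Log2 difference from the control (horizontal axis) of 39 of the 41 tested DNA replication and repair genes (vertical axis, ordered by the averaged difference) in ΔlaeA and ΔhepA, with bars of 1 SE; both strains are compared with the same 3 control libraries. Shaded rows are 17 genes with all 6 deletion values below the control; the dotted line is the median of all genes, -0.17.

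Cytosolic ribosomal protein genes were lower by a small amount in nearly all members. Of 60 tested genes, 57 had a negative difference, against 6303 of all 10009 genes. In this list 15 were one-sided (25%, against 7.08% of all genes), with a list median of -0.4 against -0.17 for all genes. With median-ratio scaling 48 were negative, where all genes had 5009 negative and 4959 positive. The one-sided genes of the list then numbered 8 (13.3%, against 5.22% of all genes) and the median was -0.21 against 0. From the 6 libraries that lay together 20 were one-sided (33.3%, against 11.8%), with a median of -0.25 against 0. RPL15 was the only one called, at 1663, 1262 and 1306 FPKM in ΔlaeA and 1540, 1402 and 1375 FPKM in ΔhepA, against 2328, 2680 and 2718 FPKM in the control (log2 difference -0.86 ± 0.18, limma adjusted p = 0.0499). Dropping any single library except ΔlaeA replicate 1 ended the call (adjusted p 0.0587 without ΔlaeA replicate 3 to 0.206 without control replicate 3). Without control replicate 1 the one-sided genes of the list numbered 32, and without ΔlaeA replicate 1 they numbered 25, with 11 called. The 87 ribosome biogenesis genes had no lower and 2 higher one-sided members (KRR1 and nop9), with a median of -0.09. The strains differed in sign there, with medians of -0.36 in ΔlaeA and 0.24 in ΔhepA. From the 6 libraries that lay together 17 lay above the control (19.5%, against 11.9% of all genes) and none below, with a median of 0.37 against 0.

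The other lists held 0% to 18.8% of lower one-sided genes, against 7.08% of all genes. Amino acid breakdown had the largest of these shares, 3 of 16 (18.8%), with 13 of 16 negative and a median of -0.64. The count was 2 (12.5%) with median-ratio scaling, against 5.22% of all genes. From the 6 libraries that lay together it was 6 (37.5%, against 11.8%), with a median of -0.6 against 0. Cell wall genes had 7 of 49 (14.3%), among them the chitin synthase genes chsD and chsF and the alpha-1,3-glucan synthase gene ags1, with 41 of 49 negative. The count was 14 without control replicate 2 (28.6%, against 16.1% of all genes) and 11 without ΔlaeA replicate 1 (22.4%, against 9.86%). From the 6 libraries that lay together it was 7, beside 3 higher. Chromatin regulators had 5 of 43 lower (11.6%) and 1 higher: veA of the velvet family had 16.7, 11 and 7.24 FPKM in ΔlaeA and 23.2, 11 and 17.9 FPKM in ΔhepA, against 33.3, 37.6 and 32.4 FPKM in the control (log2 difference -1.28 ± 0.32, limma adjusted p = 0.0895). spt4, an elongation factor gene, lay on the other side, at 114, 84.5 and 62.9 FPKM in ΔlaeA and 113, 73.4 and 114 FPKM in ΔhepA, against 34, 30.9 and 57.5 FPKM in the control (log2 difference 1.19 ± 0.29, adjusted p = 0.085). Secondary metabolism genes with a symbol, 15 tested, had 2 lower one-sided members (encD and gliI) and none higher, while 11 of the 15 had a positive difference and the median was 0.49. AMY1, an alpha-amylase gene, was one-sided at 310 to 887 FPKM in the deletion libraries, against 1022 to 1306 FPKM in the control (log2 difference -1.2 ± 0.31, adjusted p = 0.103), and YHM2, a mitochondrial citrate carrier gene, at 208 to 329 FPKM, against 383 to 660 FPKM (log2 difference -1.04 ± 0.23, adjusted p = 0.0641). Mitochondrial ribosomal protein, tricarboxylic acid cycle, and siderophore and metal genes had no one-sided member with all 9 libraries. From the 6 libraries that lay together, 14 of 25 mitochondrial ribosomal protein genes lay above the control (56%, against 11.9% of all genes) and 0 below. The median of that list was then 0.3, against 0 for all genes. Tricarboxylic acid cycle genes had 3 higher and 1 lower, and siderophore and metal genes 2 higher and 0 lower.

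**Figure D4:**
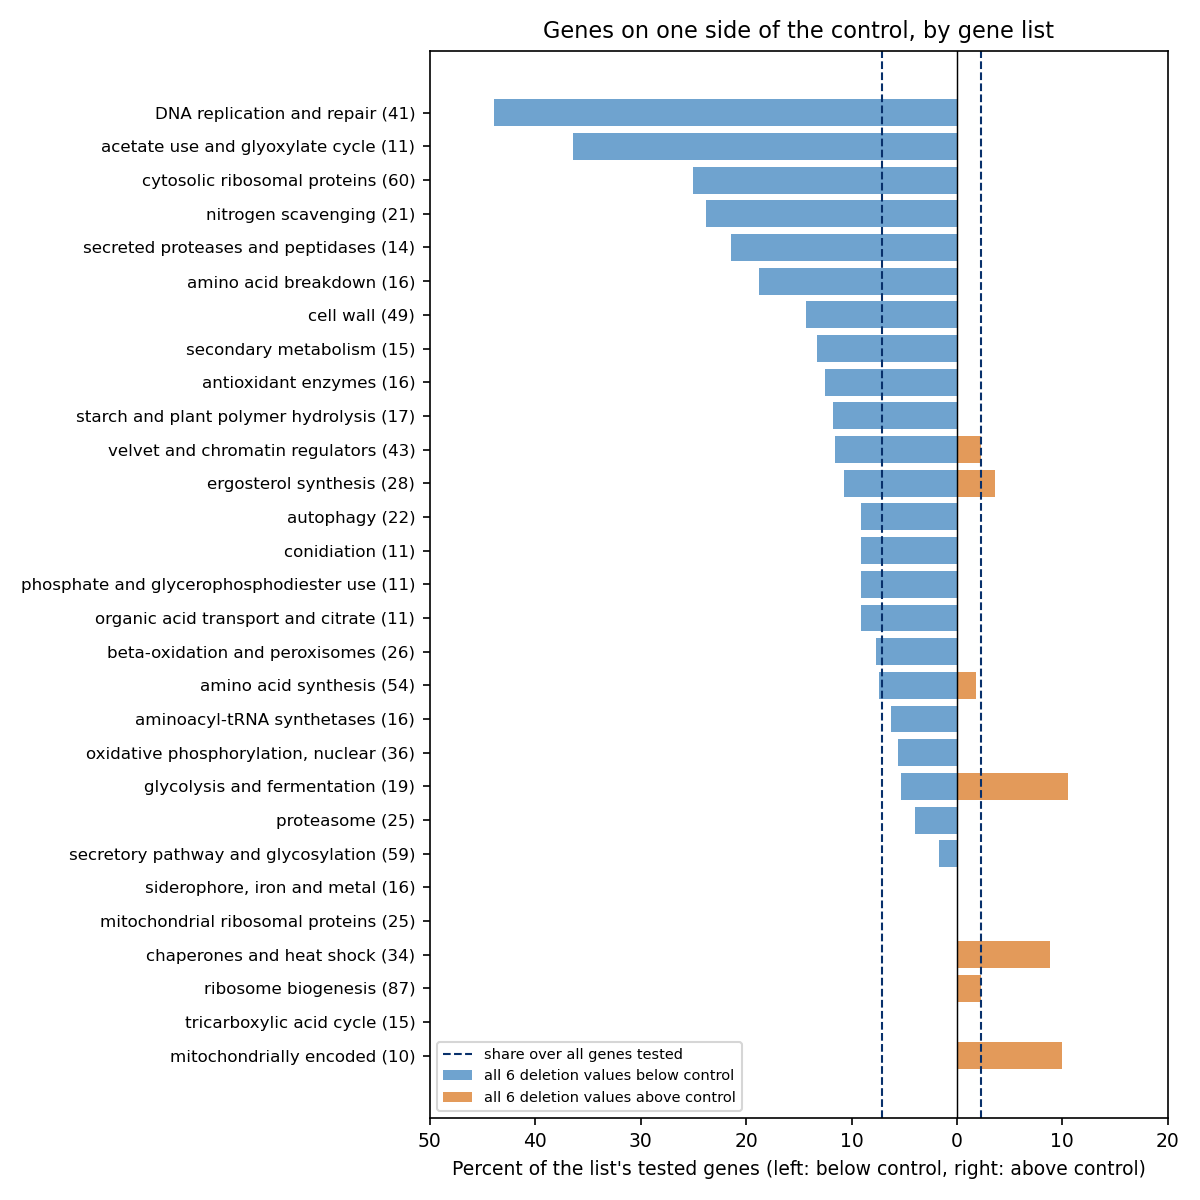
Percent of each list's tested genes (number in brackets) with all 6 deletion values below the control (bars to the left) or above it (bars to the right), for lists of at least 10 tested genes; dashed lines are the shares over all genes, 7.08% and 2.25%. DNA replication and repair stands furthest left at 43.9%, followed by acetate use at 36.4% and cytosolic ribosomal proteins at 25%.

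With FPKM as deposited, 225 genes lay above the control in all 6 deletion libraries, and 8 of them were called. HSP98, the disaggregating chaperone of the ClpB family, had 1259, 1497 and 626 FPKM in ΔlaeA and 2187, 896 and 1206 FPKM in ΔhepA, against 295, 377 and 421 FPKM in the control (log2 difference 1.72 ± 0.34, limma adjusted p = 0.0373). The 6 deletion values were all above the control but spread widely. HSP30 and the heat shock factor gene HSF1 were one-sided and not called (log2 differences 1.25 and 0.54, adjusted p = 0.129 and 0.275), which made 3 of 34 tested chaperone genes higher (8.82%, against 2.25% of all genes). The list's median difference was 0.16, with 21 positive and 13 negative differences. With median-ratio scaling the median was 0.35, with 11 one-sided members above the control and 2 below. From the 6 libraries that lay together it was 0.53, with 16 above and 0 below. Of all genes, 5.02% and 11.9% lay above in these settings. Dropping control replicate 1, control replicate 2 or ΔlaeA replicate 1 gave 2, 4 and 3 lower members, each time beside 3 higher.

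The reference gives no symbol to the other 7 genes that were called higher and one-sided. AKAW2_31315S (chromosome 3, 3925197 to 3926702) had 13, 34.4 and 90.6 FPKM in ΔlaeA and 5.42, 16.3 and 13.3 FPKM in ΔhepA, against 1.75, 2.35 and 0.99 FPKM in the control (log2 difference 2.95 ± 0.54, limma adjusted p = 0.0278). Its highest value was in ΔlaeA replicate 3, the library with the largest mitochondrial share. AKAW2_70670S was abundant, at 1064, 1623 and 827 FPKM in ΔlaeA and 1611, 1791 and 1739 FPKM in ΔhepA, against 601, 542 and 598 FPKM in the control (log2 difference 1.26 ± 0.22, adjusted p = 0.0246). AKAW2_10244A had 531 to 1335 FPKM in the deletion libraries, against 233 to 347 FPKM in the control (log2 difference 1.51). AKAW2_10810S, AKAW2_51344A, AKAW2_41252A and AKAW2_70218A rose by 1.51, 1.5, 1.49 and 1.04 on the log2 scale (limma adjusted p 0.0278 to 0.04). These 8 calls were fragile: none was left without control replicate 1 (limma adjusted p 0.125 to 0.215), control replicate 3 (0.0851 to 0.151), ΔhepA replicate 3 (0.0723 to 0.121) or the 3 libraries that lay apart (0.0706 to 0.148). Without control replicate 2, ΔhepA replicates 1 and 2 and ΔlaeA replicate 2, 3, 3, 1 and 2 of the 8 were called (the others at 0.0604 to 0.0943, 0.0524 to 0.0736, 0.0575 to 0.0858 and 0.0634 to 0.114).

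Neighbouring one-sided genes occurred in 5 runs of at least 4 tested genes, all lower, of which the chromosome 4 run above was the longest at 5. A run on chromosome 6, AKAW2_61275A to AKAW2_61278A (3705061 to 3710953), held URG1_1 and FUR1_1, named after a yeast gene induced by uracil and the yeast uracil phosphoribosyltransferase of pyrimidine salvage. It is described here after its values were seen. URG1_1 had 30.8, 17.9 and 23.1 FPKM in ΔlaeA and 45, 15.2 and 47.3 FPKM in ΔhepA, against 1221, 69.2 and 218 FPKM in the control (log2 difference -3.23 ± 0.72, limma adjusted p = 0.0617). FUR1_1 had 1.98 to 4.67 FPKM in the deletion libraries, against 98.6, 4.71 and 19.2 FPKM in the control (log2 difference -2.35 ± 0.68, adjusted p = 0.129). AKAW2_61277S between them had 21.3 to 67.8 FPKM, against 1894, 101 and 399 FPKM (log2 difference -3.41 ± 0.73, adjusted p = 0.0547). In these 3 genes control replicate 1 was far above the other controls and control replicate 2 was nearest to the deletion libraries, and none was called. The other runs were AKAW2_31406A to AKAW2_31409S on chromosome 3 with 1 called gene, AKAW2_70353S to GAL1 (AKAW2_70356A) on chromosome 7 with none, and AKAW2_81087A to AKAW2_81090A on chromosome 8 with 3.

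The 2 strains were also compared with each other, to ask whether the shared genes moved by different amounts. The direct limma comparison of ΔlaeA with ΔhepA called 5 of the 10009 genes (0.05%) and none of the 116 called and one-sided genes, where the lowest adjusted p was 0.103 and 21 had an unadjusted p under 0.05. The mean of ΔlaeA was below that of ΔhepA in 76 of the 108 genes that fell and above it in 4 of the 8 that rose. The 95% interval of ΔlaeA minus ΔhepA, not adjusted for the number of genes, had a half-width of 0.46 to 1.99 on the log2 scale over the 116 genes. Its median was 0.83. The calls used adjusted p, so differences well above this half-width could also be missed. AKAW2_81090A at -2.98 and AKAW2_40205S at -2.23 were not called (limma adjusted p = 0.103 for each). For AKAW2_40843S the interval ran from -0.58 to 0.62, for SED2 from -0.9 to 1.31 and for HSP98 from -1.19 to 0.52. Set against the control separately, with the same 3 control libraries in both, 76 of the 116 were called in ΔlaeA and 27 in ΔhepA. Of the 116, 21 were called in each and 34 in neither. The 116 were chosen by the average of these same comparisons, and no share over all genes is given beside the counts of this paragraph. All genes had medians of -0.21 in ΔlaeA and -0.15 in ΔhepA. The counts therefore do not rank the strains by the size of the shared change.

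A further 6 genes were called in the averaged contrast without being one-sided. AKAW2_80200S (chromosome 8, 589285 to 590334) had 71.7, 34.8 and 26.2 FPKM in ΔlaeA and 0.41, 0.48 and 1.31 FPKM in ΔhepA, against 69.5, 54.6 and 64.3 FPKM in the control. AKAW2_10350A (chromosome 1, 1026412 to 1027642) had 0.24, 0.7 and 0 FPKM in ΔlaeA and 8.06, 10.1 and 13.5 FPKM in ΔhepA, against 15.2, 22 and 10.4 FPKM in the control. Each was near 0 in 1 strain only, and whether these loci were removed or less expressed cannot be told apart from FPKM. AKAW2_81091S, next to the chromosome 8 run, had 2.26 to 6.4 FPKM in ΔlaeA and 39.9 to 62.8 FPKM in ΔhepA, against 57.6 to 198 FPKM in the control. AKAW2_50495A and AKAW2_20330S were lower and AKAW2_30784S higher, each with 1 deletion library at or among the control values. All 6 were picked with their values known.

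Of the 116 genes, 3 were listed at 0 in all 6 deletion libraries. They passed the filter only through the control libraries, where they are high, so their tests are not used as support. Like AKAW2_80001S and AKAW2_61138S, they remain in the counts of called genes. AKAW2_81008A had 3.51, 1.95 and 4.63 FPKM in the control, AKAW2_40199S 2.3, 2.56 and 2.1 FPKM and AKAW2_50865S 3.56, 1.59 and 1.31 FPKM; no fold change is given against a value listed at 0. These controls stood close to the filter of 1 FPKM. Just inside it, 80 genes had a third-highest value of 1 to 1.1 FPKM, and just outside it 98 genes had 0.9 to 1 FPKM. The 2932 genes that did not pass held 9 further genes with all 6 deletion values above the control and 35 with all 6 below. Among the 934 one-sided genes the distance between the groups was as small as 0.00103 on the log2 scale, and it was over 1, a factor of 2, for 45 lower genes and no higher gene. Together the 709 lower genes took 3.51% to 6.87% of the FPKM sum in the deletion libraries, against 10.3% to 11.6% in the control.

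**Figure D5:**
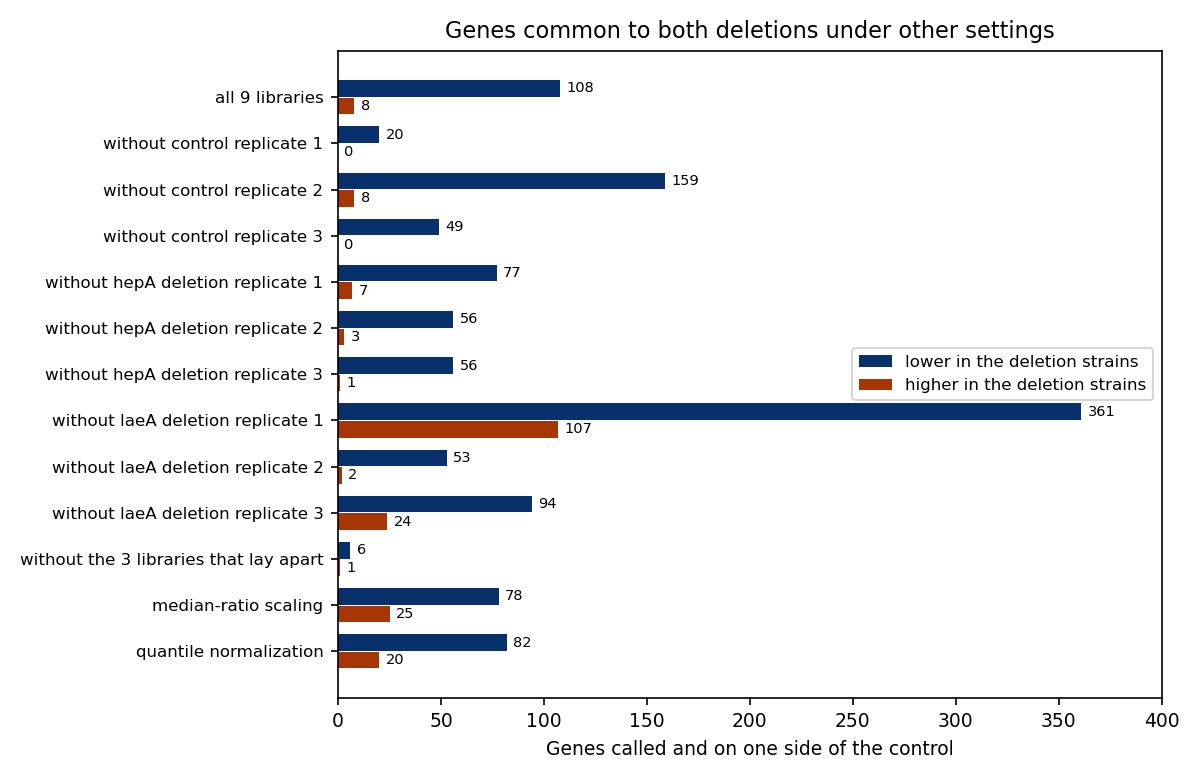
Number of genes called in the averaged contrast and one-sided (horizontal axis), lower or higher in the deletion strains, with all 9 libraries, with each library left out, without the 3 libraries that lay apart and with 2 other scalings (vertical axis). Counts run from 6 lower and 1 higher without the 3 libraries to 361 lower and 107 higher without ΔlaeA replicate 1, against 108 and 8 with all libraries.

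The number of shared changes depended on which libraries entered. Without ΔlaeA replicate 1, 361 lower and 107 higher genes were called and one-sided, all 116 genes among them. Dropping control replicate 1 left 20 lower and none higher, dropping control replicate 2 left 159 and 8, and dropping control replicate 3 left 49 and none. Dropping ΔhepA replicate 1, 2 or 3 left 77 and 7, 56 and 3, and 56 and 1, and dropping ΔlaeA replicate 2 or 3 left 53 and 2, and 94 and 24. In all 9 of these fits 16 of the 116 genes were called, all of them lower, and 48 were called in all 12 other settings. The one-sided counts moved by more than 1.5 times without control replicate 2 (1597 lower and 402 higher), and without control replicates 1 and 3 and ΔhepA replicates 1 and 2 (409, 361, 349 and 354 higher).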

How the data were processed

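The 9 libraries were grouped by their genotype labels, 3 each of ΔlaeA, ΔhepA and control. The authors deposited 1 table of FPKM values from RSEM, 1 column per library; per the labels' protocols the libraries were poly(A)-enriched and stranded. Per the submitters' processing notes, STAR 2.7.9a, RSEM 1.3.1 and featureCounts 2.0.1 were among the tools, with Trimmomatic 0.39, Trim Galore 0.6.7, cutadapt 3.7 and FastQC 0.11.9; their roles and the genome build are not given in the sources used here. Each of the 12941 identifiers was found in RefSeq's table, which gave a symbol for 2243. Start positions equalled the reference in 12936 genes.

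FPKM are relative to each library's total, so abundant transcripts can lower all others. They are not counts, so no count test was used, and depth is known only as a ratio. Genes reaching 1 FPKM in 3 or more libraries were fitted as log2(FPKM + 1) with limma 3.58.1 in R 4.3.3 (group means, 6 residual degrees of freedom, eBayes with a mean trend). The contrast was the mean of ΔlaeA and ΔhepA minus control, two-sided, with Benjamini-Hochberg adjustment over all tested genes and a threshold of 0.05. The fit was tested on simulated data with independent noise in each library, unlike the real data, where 3 libraries lay apart. Of genes given a log2 difference of 1, 2 or 3, it called 18.2%, 71.6% and 92.5%. Of the other genes it called 0.102%. Tables and plots were made with matplotlib 3.10.9, scipy 1.17.1, pandas 2.3.3 and numpy 2.4.6 under Python 3.11.15.

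Members and gene lists were chosen with earlier results of these data known. The 32 lists were rewritten as symbols once the reference's symbols were seen, since patterns over descriptions matched wrong genes. Named genes are the 10 largest rises and falls, overall and among genes with a symbol, up to 3 per list, and all genes of runs of at least 3, among genes called, one-sided and with a group mean of at least 5 FPKM; 33 genes met this. Genes shown as uncalled examples of a list, and those of other runs, were picked with values known. A few genes are counted in their lists but not reported here.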

Additional observations from a re-analysis of the deposited data

Results flagged for a closer look

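Mitochondrially encoded genes took 7% of the FPKM sum in ΔlaeA replicate 3, far from the other 5 deletion libraries at 1.09% to 3.04% (Dixon's test over 6 values at the 95% level; chance alone passes about 1 group in 20). In 3 genes called in the averaged contrast the strains differed from each other by the limma comparison of ΔlaeA with ΔhepA. AKAW2_80200S was higher in ΔlaeA (adjusted p = 0.00162, log2 difference 4.61), and AKAW2_10350A (adjusted p = 0.0167, log2 difference -3.14) and AKAW2_81091S (adjusted p = 0.0405, log2 difference -3.28) were lower in ΔlaeA.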

How the results depend on the processing

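Leaving out each library in turn gave 21 to 466 genes called lower and 0 to 188 called higher in the averaged contrast, and 20 to 361 lower and 0 to 107 higher that were called and one-sided. The one-sided genes then numbered 755 to 1597 lower and 241 to 409 higher (fewer values are easier to place on one side), and 1 to 269 genes were called between ΔlaeA and ΔhepA. Without the 3 libraries that lay apart, chosen after seeing the data, 6 genes were called lower and 1 higher, all of them one-sided, 1136 lower and 1144 higher were one-sided, and 0 were called between the strains. Median-ratio and quantile scaling gave 27 and 22 genes called higher, 500 and 469 one-sided higher, and 25 and 20 both. Treating the 6 deletion libraries as 1 group gave 4 called higher, 4 of them one-sided, and a fit without the mean trend gave 5 and 4. Also added after seeing the data, the mitochondrial share as a covariate gave 42 called higher, 25 of them one-sided, and 1 between the strains, and leaving out mitochondrial, rRNA and tRNA genes gave 16 and 14. A pseudocount of 5 gave 1 gene between the strains. The cause of these shifts was not tested. With the replicate number as a replicate block, 120 genes were called lower and 12 higher, 107 and 8 of them one-sided, and 1 was called between the strains. Same-numbered libraries were not paired by the labels, and 3 of 9 same-number correlations of deviations exceeded 0.1 (-0.22 to 0.423), with the own number the best match in 7 of 18 cases. No named gene changed direction under any of these settings. Where libraries were only dropped, this was fixed by the choice of one-sided genes. The call of the averaged contrast was kept in 515 gene and setting combinations and lost in 205. The spread among 3 control libraries limits the precision for genes such as AKAW2_20544A and URG1_1, with SE of 0.78 and 0.72, and depth limits genes near 1 FPKM in ΔlaeA replicates 2 and 3.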

Other observations

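Values of some one-sided genes outside the lists follow as single genes. They were picked with their values known, and no share of such genes among all tested genes was computed, so they stand for no group. cpcA and cpcB, regulators of amino acid starvation responses in Aspergillus, lay below the control in all 6 deletion libraries, with log2 differences of -1.42 and -0.55 (limma adjusted p = 0.155 and 0.237). tof1, CSM3 and CTF18, named after genes of the replication fork, had -1.23, -1.01 and -0.98, and CDC6, named after an origin licensing gene, had -0.98. These 4 had limma adjusted p of 0.0747 to 0.188, and none was called. TIM10 and TIM22, named after genes of mitochondrial protein import, lay above the control, with 0.99 and 0.86 (limma adjusted p = 0.121 and 0.106).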
